A study of Mus musculus with 4 samples.

Results

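Adventitial fibroblast nuclei were described in single-nucleus RNA-Seq of mouse lungs. A barcode was a member when it held 1500 or more UMIs (unique molecular identifiers, each standing for 1 captured RNA molecule), at most 2 UMIs of Ptprc, at most 3 UMIs in total of Pecam1, Cdh5, Tek and Ptprb, and 4 or more UMIs from at least 3 of the 7 genes Pi16, Scara5, Ebf2, Lsamp, Opcml, Gpc6 and Kcnt2, with at least 1 of them from Pi16, Scara5 or Ebf2. Of 134745 barcodes with 1500 or more UMIs, 179 were members, 31 in WT 1, 27 in WT 2, 77 in Tg 1 and 44 in Tg 2. The members were therefore chosen by their own UMIs, and the levels of the 7 genes are given as a description with no test.

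Lungs of 2 mice of the WT genotype and 2 of the VEcad-TRF2DN-Tg genotype (Tg) were sequenced. The labels give an age of 8 to 9 weeks for all 4 mice and the strain C57/BL6J for WT mice. The study's methods, not the labels, give males of that age as the usual animals and chronic hypoxia as 10% oxygen for 3 weeks. They also give a C57/BL6J background for Tg mice, bred as heterozygotes with WT mice of that strain. The study's results say that the sequenced lungs of both genotypes came from mice kept in chronic hypoxia. Whether the age is that before or after hypoxia is not given in the sources used here. In Tg mice the VE-cadherin promoter drives dominant-negative TRF2, a version of this telomere-binding protein that blocks its normal function, in endothelial cells, so fibroblasts carry the transgene without being the cells meant to express it. The comparison of the genotypes in these nuclei asks what differed in a neighbour of the vessel wall when the endothelium expressed the transgene. Each mouse gave 1 library, and p-values measure only the spread between 2 mice per genotype.

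Adventitial fibroblasts lie in the outer sheath of arteries, veins and large airways, whereas alveolar fibroblasts lie between the gas-exchange surfaces. In the mouse lung the former are commonly told by Pi16, a peptidase inhibitor, by the ferritin receptor Scara5 and by the transcription factor Ebf2, and they lay down collagens, proteoglycans and elastic fibre proteins around the vessel. The adventitia is a known site of matrix deposition and signalling in pulmonary hypertension.

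The libraries held 125261739 to 182014706 UMIs each over all barcodes. Members had a median of 4457, 5323, 3048 and 2880 UMIs in WT 1, WT 2, Tg 1 and Tg 2, and together 147226, 146254, 277581 and 195256 UMIs. Levels are given below as CPM (a gene's UMIs summed over the members of a mouse, scaled to a total of 1000000) in that order of mice. Barcodes ranked 45000 to 90000 by UMIs were taken as droplets without a nucleus. They held a median of 836, 672, 745 and 949 UMIs and at most 1178, 1296, 988 and 1474, which in Tg 2 is just under the limit for members, and whether some held a nucleus was not tested. A second set, the barcodes with 10 to 100 UMIs, was added after seeing the data. It holds only 36353 to 351398 UMIs per mouse and is named below for some of the counts. RNA in droplets differed between the genotypes. Scgb1a1, the main airway secretory protein, made 1.42% and 1.47% of the UMIs of the first set in WT mice and 11.8% and 3.55% in Tg mice, and 1.02%, 1.81%, 9.61% and 3.42% of those of the second. From such airway genes, free RNA was estimated at 33.6%, 35.4%, 26.1% and 31.1% of the members' UMIs. Between pairs of mice 176 to 475 barcodes with 1500 or more UMIs had the same sequence, and no member was shared. The members' sums held Terf2, the mouse gene of TRF2, at 67.9, 75.2, 64.8 and 76.8 CPM, and the transgene was not told apart from it. Xist had 0 UMIs in members of every mouse and the Y-linked Ddx3y had 8 to 21.

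The markers were detected in different shares of the members. Gpc6, a glypican of the cell surface, was detected in 170 of the 179 nuclei, Scara5 in 122, Opcml in 115, Kcnt2 in 96, Lsamp in 83, Pi16 in 78 and Ebf2 in 72. Of Pi16, Scara5 and Ebf2, 104 nuclei had UMIs of 1 gene, 57 of 2 and 18 of 3, and 9 nuclei had all 7 markers. The median member held 15, 11, 13 and 13 marker UMIs, and the range over all members was 4 to 72. Scara5 stood at 333, 260, 494 and 333 CPM in members, against at most 6.74 in alveolar fibroblast nuclei and 10 in droplets. Ebf2 stood at 258, 260, 256 and 287 CPM, against at most 3.44 in alveolar fibroblast nuclei. Pi16 stood at 204, 130, 184 and 164 CPM, against 3.37 to 7.79 CPM. The neural adhesion genes Opcml and Lsamp, both of the IgLON family, stood at 1039, 622, 857 and 917 CPM and at 618, 144, 616 and 430 CPM, and did not pass 38.9 CPM in alveolar fibroblast nuclei. The level of Ebf2 was close to even over the mice, whereas Kcnt2, a potassium channel subunit, varied from 178 CPM in WT 2 to 761 CPM in WT 1. Gpc6 was also the marker seen most in mesothelial nuclei, with 113 to 384 CPM there and 711 to 2323 CPM in members.

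Reference classes were chosen from the same barcodes by rules of the same shape. A barcode that met several of the reference rules was in none of these classes, whereas members were kept whatever other rule they met. For alveolar fibroblasts this left out 24, 25, 44 and 50 barcodes. The alveolar fibroblast rule used Tcf21, Itga8, Fgfr4, Pdgfra, Wnt2, Col13a1 and Slc7a10 and found 315 nuclei (53, 50, 145 and 67). The other classes used here were pericytes (128 nuclei), mesothelial nuclei (6665), the lining of the lung surface, and alveolar type 2 nuclei (26085). Alveolar fibroblast nuclei had a median of 4840, 4930, 2809 and 3201 UMIs, near that of the members. Scara5 was detected in 4 of these 315 nuclei, Pi16 in 7 and Ebf2 in 2.

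Of 20 adventitial markers outside the rule, 9 were above droplets and 11 were above alveolar fibroblast nuclei in every mouse. By the latter count droplets had 11 and mesothelial nuclei 12 of the 20, so it does not set the members apart. The 20 summed to 4449, 3617, 3721 and 4650 CPM in members, 1769 to 2893 CPM in droplets, 2031 to 2753 CPM in alveolar fibroblast nuclei and 3140 to 3874 CPM in mesothelial nuclei. Col14a1, a fibril-associated collagen, stood at 543, 157, 367 and 353 CPM in members and at 27.5, 10.1, 13.1 and 19.5 CPM in alveolar fibroblast nuclei. It was detected in 104 of 179 members, in 18 of 315 alveolar fibroblast nuclei and in 1397 of 6665 mesothelial nuclei. Tnxb, a tenascin that binds collagen, stood at 258, 219, 317 and 405 CPM in members, 75.6, 115, 135 and 144 CPM in alveolar fibroblast nuclei and 6.42 to 24.7 CPM in droplets. The proteoglycan Dcn had an even level of 523, 499, 537 and 548 CPM in members, but in WT 2 and both Tg mice its level in droplets was close behind, at 370, 390 and 471 CPM. Mfap5, a microfibril protein, stood at 74.7, 75.2, 159 and 66.6 CPM in members and at 27.2 to 48.1 CPM in alveolar fibroblast nuclei. Several markers did not set the members apart. Hsd11b1, an enzyme that activates glucocorticoids, was lower in members in every mouse, at 27.2, 61.5, 101 and 30.7 CPM against 399, 563, 743 and 475 CPM in alveolar fibroblast nuclei. Cd248 had 0 UMIs in members of both WT mice and 5 and 4 UMIs in Tg mice.

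Some defining markers of other mesenchymal classes were at or near 0, but their lists as a whole were not. The 12 alveolar fibroblast markers summed to 2567, 2188, 2738 and 3155 CPM in members. This was above the 1688, 1917, 1673 and 1730 CPM of droplets and below the 7688 to 8956 CPM of alveolar fibroblast nuclei. In every mouse 4 of the 12 were above the first set of droplets, and 3 above the second. Among them Wnt2 had 0 UMIs and Tcf21 had 1 UMI over all members, and the integrin Itga8 stood at 6.79, 41.0, 130 and 30.7 CPM against 1244 to 1651 CPM in alveolar fibroblast nuclei. The 9 pericyte markers summed to 109, 82.0, 130 and 102 CPM, above the 72.1, 48.3, 66.9 and 68.1 CPM of droplets in every mouse, against 3941 to 5992 CPM in pericytes. Without the nuclei that also met the mesothelial rule (described below) they came to 54.6 CPM in WT 1 and 129, 143 and 94.7 CPM in the other mice. In WT 1 that was under the first set of droplets but above the 27.5 CPM of the second. Of these 9, Rgs5 and Kcnk3 had 0 UMIs, as had Sox10 of Schwann cells. The smooth muscle list (8 genes) summed to 61.1 and 20.5 CPM in WT mice and 61.2 and 30.7 CPM in Tg mice, with Acta2 at 2, 0, 2 and 0 UMIs. The endothelial list, part of which the rule limits, summed to 448 to 555 CPM, below the 937 to 1130 CPM of droplets in every mouse. Airway epithelial genes (10) summed to 7044 and 6229 CPM in members of WT mice and 35986 and 13367 CPM in those of Tg mice, with 19805, 16999, 131694 and 42032 CPM in droplets. Alveolar epithelial genes (12) summed to 2527 and 3193 CPM in WT mice and 7425 and 7785 CPM in Tg mice, again below droplets. Immune genes (12) summed to 428 and 1128 CPM in WT mice and 832 and 1352 CPM in Tg mice.

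Mesothelial markers were high in a part of the members. Altogether 31 members (5, 8, 5 and 13) also met the mesothelial rule, which is 16.1%, 29.6%, 6.49% and 29.5% of the members of the mice. These 31 had a median of 19 mesothelial UMIs and of 6217 UMIs in all, whereas the other 148 had medians of 1 and 2920. Gpm6a, a membrane glycoprotein of mesothelium, had a median of 9 UMIs in the 31 nuclei and 0 in the 148, and Slit3, a guidance ligand of the fibroblasts, a median of 3 and 7. Summed over all members the 9 mesothelial markers came to 1501, 2359, 785 and 2366 CPM. Without the 31 nuclei they came to 173, 468, 587 and 568 CPM, below the 591, 923, 1721 and 1856 CPM of droplets in every mouse. Since the rules chose both sets of nuclei by these markers, the split is given as a description. The cxds score marks droplets with genes rarely found together. Among the barcodes with the highest score were 26 of the 31 nuclei and 49 of the 148. Of all barcodes, 21.5%, 30.8%, 20.2% and 35.2% in the mice were among these. The score was not adjusted for UMIs, of which the 31 nuclei had more in the median. Over all 179 members, 38 met the alveolar type 2 rule, 1 the pericyte rule and 3 (all in Tg 1) the alveolar fibroblast rule. Of these 3, 1 was among the 31. Beside this, 26085 of the 134745 barcodes formed the alveolar type 2 class and 6665 the mesothelial class. These classes leave out members and barcodes that met several reference rules.

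**Figure D1:**
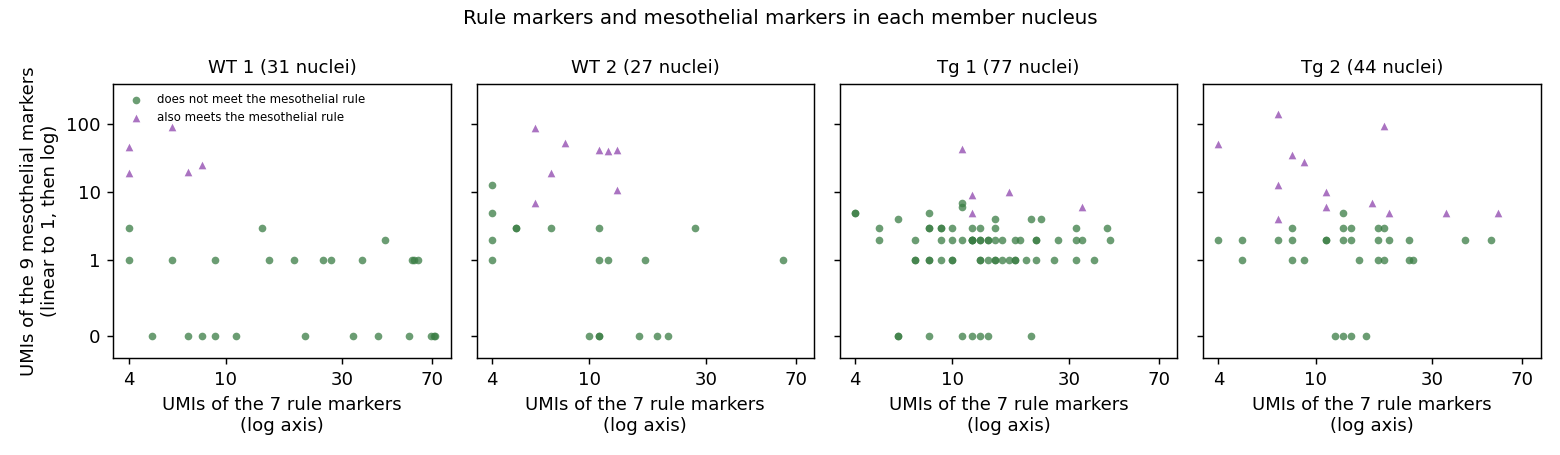
UMIs of the 9 mesothelial markers (vertical axis, linear to 1 and then logarithmic) against UMIs of the 7 rule markers (horizontal axis, logarithmic) in each of the 179 member nuclei, 1 panel per mouse. Triangles are the 31 nuclei that also met the mesothelial rule, with 4 to 143 mesothelial UMIs, and circles are the other 148, with 0 to 13.

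At the edge of the rule the identity of the nuclei was less clear. Members with exactly 4 marker UMIs numbered 4, 4, 2 and 2, and barcodes with 3 marker UMIs that met every other part of the rule numbered 4, 12, 5 and 2. Just inside, Slit3 stood at 888, 799, 323 and 86.9 CPM, and just outside at 54.4, 712, 151 and 1041 CPM. Members with 10 or more marker UMIs, which were 18, 16, 57 and 30 nuclei, had Slit3 at 4060, 1880, 1720 and 1903 CPM. Gpm6a stood at 2270, 564, 538 and 2606 CPM in members with 4 marker UMIs and at 71.6, 865, 182 and 359 CPM in those with 10 or more, so it was lower in the latter in 3 mice and higher in WT 2.

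Members were set beside alveolar fibroblast nuclei to describe how these fibroblasts differ, with no test, since the rules chose both. Among 1378 genes outside the rules with 20 or more UMIs in the members of every mouse, 64 were at least 2-fold higher in members in all 4 mice. The 20 with the highest lowest ratio included 2 imprinted noncoding RNAs of the same locus. Meg3 (mouse build GRCm38, chromosome 12, 109541001 to 109571726, plus strand) stood at 652, 547, 591 and 625 CPM in members and 6.87, 3.37, 34.8 and 27.2 CPM in alveolar fibroblast nuclei. Rian stood at 143, 171, 90.1 and 118 CPM and at most 7.79 CPM in the same classes. Meg3 was detected in 114 of 179 members and 10 of 315 alveolar fibroblast nuclei, and pericytes also held it, at 293 to 516 CPM. The transcription factor Ebf1, a relative of the rule gene Ebf2, stood at 1094, 506, 973 and 789 CPM against 41.2, 101, 54.4 and 23.4 CPM. Pericytes were higher still in Ebf1, at 1799 to 3896 CPM, so Ebf1 did not set the members apart from them. Meg3 was above pericytes in every mouse in all members, but in WT 2 it stood at 339 CPM in the 148 nuclei without the mesothelial rule, below the 516 CPM of pericytes.

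Of the 20, 8 were higher in members than in alveolar fibroblast, mesothelial and pericyte nuclei in every mouse, namely Meg3, Rian, Col14a1, Fndc1, Ank2, Frmd5, Hecw2 and Medag. Without the 31 nuclei 6 of them were, all but Meg3 and Fndc1. Frmd5, a protein with a FERM domain, stood at 781, 191, 317 and 205 CPM in members, 263, 140, 67.2 and 51.6 CPM in mesothelial nuclei and at most 8.87 CPM in pericytes. Ank2, an ankyrin that anchors membrane proteins, stood at 462, 267, 328 and 205 CPM in members and did not pass 60.8 CPM in mesothelial nuclei or 196 CPM in pericytes. Hecw2, a ubiquitin ligase, stood at 306, 185, 180 and 184 CPM in members and at no more than 60.2 CPM in the 3 other classes. In the 148 nuclei without the mesothelial rule Ank2 was higher in every mouse, at 601, 339, 342 and 273 CPM. Medag, which promotes fat cell differentiation, stood at 197, 178, 115 and 205 CPM in members and at most 24.0 CPM in alveolar fibroblast nuclei. Fndc1 stood at 224, 588, 159 and 256 CPM in all members and 300, 187, 159 and 316 CPM without the 31 nuclei. Mesothelial nuclei held Fndc1 at 225 CPM in WT 2, above the 148 nuclei of that mouse, and at most 23 CPM in the other mice.

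A further group of the 20 was shared with mesothelium. Tenm3, a teneurin adhesion protein, stood at 326, 424, 148 and 277 CPM in members, at most 10.1 CPM in alveolar fibroblast nuclei and 440, 332, 271 and 217 CPM in mesothelial nuclei. In the 148 nuclei Tenm3 still stood at 291, 351, 126 and 231 CPM. Adamtsl1, a secreted protein of the extracellular matrix, stood at 2235, 2318, 620 and 1664 CPM in all members and 1466, 620, 672 and 841 CPM without the 31 nuclei, with 4194, 3486, 2378 and 1976 CPM in mesothelial nuclei. The guidance ligand Efna5 stood at 1575, 480, 640 and 620 CPM in the 148 nuclei and 1464 to 3660 CPM in mesothelial nuclei. Sema3d, Cdon, Flrt2, Pcdh7, Tmeff2 and Rbfox1 were higher in mesothelial nuclei than in members in at least 1 mouse.

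The 64 listed genes of collagens, elastic fibres and other matrix were compared with no lowest number of UMIs set. Of these, 22 were higher in members than in alveolar fibroblast nuclei in every mouse and 10 were lower in every mouse. The other 32 were mixed or tied at 0 in some mice. The shares of all genes higher or lower in every mouse were not counted, so these numbers do not set matrix genes apart from other genes. Fn1, or fibronectin, was among the lower ones, at 122, 308, 375 and 461 CPM against 543, 580, 412 and 561 CPM, but without the 31 nuclei it stood at 736 CPM in Tg 2, above alveolar fibroblast nuclei. Spon1, a matrix protein of the F-spondin family, was lower as well, at 163, 294, 112 and 30.7 CPM against 921 to 1485 CPM. Others were higher. The fibrillar collagen Col3a1 stood at 727, 520, 598 and 497 CPM against 258, 229, 248 and 195 CPM. Col1a2 stood at 577, 253, 472 and 343 CPM against 179, 199, 105 and 171 CPM, and its partner Col1a1 at 102, 123, 213 and 138 CPM against 34.4 to 54.5 CPM. For these 3 collagens, picked from the 22, members and alveolar fibroblast nuclei did not overlap. Vcan, a large proteoglycan, stood at 81.5, 47.9, 108 and 66.6 CPM against 6.87 to 19.5 CPM. Fbln2, a fibulin of elastic fibres, stood at 47.5, 41.0, 54.0 and 41.0 CPM against at most 4.36 CPM, but droplets reached 28.1 CPM. Adamts2, the protease that trims procollagen, stood at 469, 253, 382 and 241 CPM against 131, 236, 150 and 191 CPM.

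Some of the 24 listed guidance genes, picked here with no test, are set beside alveolar fibroblast nuclei. Slit3 stood at 3057, 1525, 1643 and 1419 CPM in members and 1179, 1688, 947 and 1144 CPM in alveolar fibroblast nuclei, so that the order turned in WT 2. Without the 31 nuclei it stood at 3823, 2375, 1760 and 1956 CPM, above alveolar fibroblast nuclei in every mouse. Its relative Slit2 was lower in members in every mouse, at 720, 725, 303 and 159 CPM against 3309, 2258, 1333 and 1666 CPM. Robo2, a receptor of slits, was lower as well, at 211, 260, 292 and 174 CPM against 1879 to 3062 CPM. The netrin ligand Ntn1 stood at 238, 130, 173 and 164 CPM against 15.2 to 41.2 CPM, while the netrin receptor Unc5c stood at 306, 253, 241 and 159 CPM against 792 to 1406 CPM. Ligands and receptors of both families were thus detected in members. Slit2, Robo2 and Unc5c were lower in members than in alveolar fibroblast nuclei in every mouse, and Ntn1 was higher. For Slit3 in all members the order was not the same in every mouse.

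Among signals to the vessel, Angpt1, the ligand of the endothelial receptor Tek, stood at 421, 178, 234 and 261 CPM in members, 1052 to 1806 CPM in alveolar fibroblast nuclei and 721 to 1648 CPM in pericytes. The interleukin 1 receptor Il1r1 stood at 475, 267, 227 and 307 CPM in members and 241, 256, 91.5 and 128 CPM in alveolar fibroblast nuclei. Pdgfra, a growth factor receptor of fibroblasts that the alveolar rule used, stood at 163, 116, 281 and 61.5 CPM in members. The complement component C7 was high in both fibroblast classes, at 2377, 622, 746 and 650 CPM and at 3213, 2173, 1363 and 1479 CPM, and stood at 22.7 to 47.4 CPM in mesothelial nuclei. The transcription factors Prrx1, which marks connective tissue mesenchyme, and Creb5 were higher in members in every mouse, with Prrx1 at 319, 144, 313 and 154 CPM against 70.8 to 113 CPM.

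**Figure D2:**
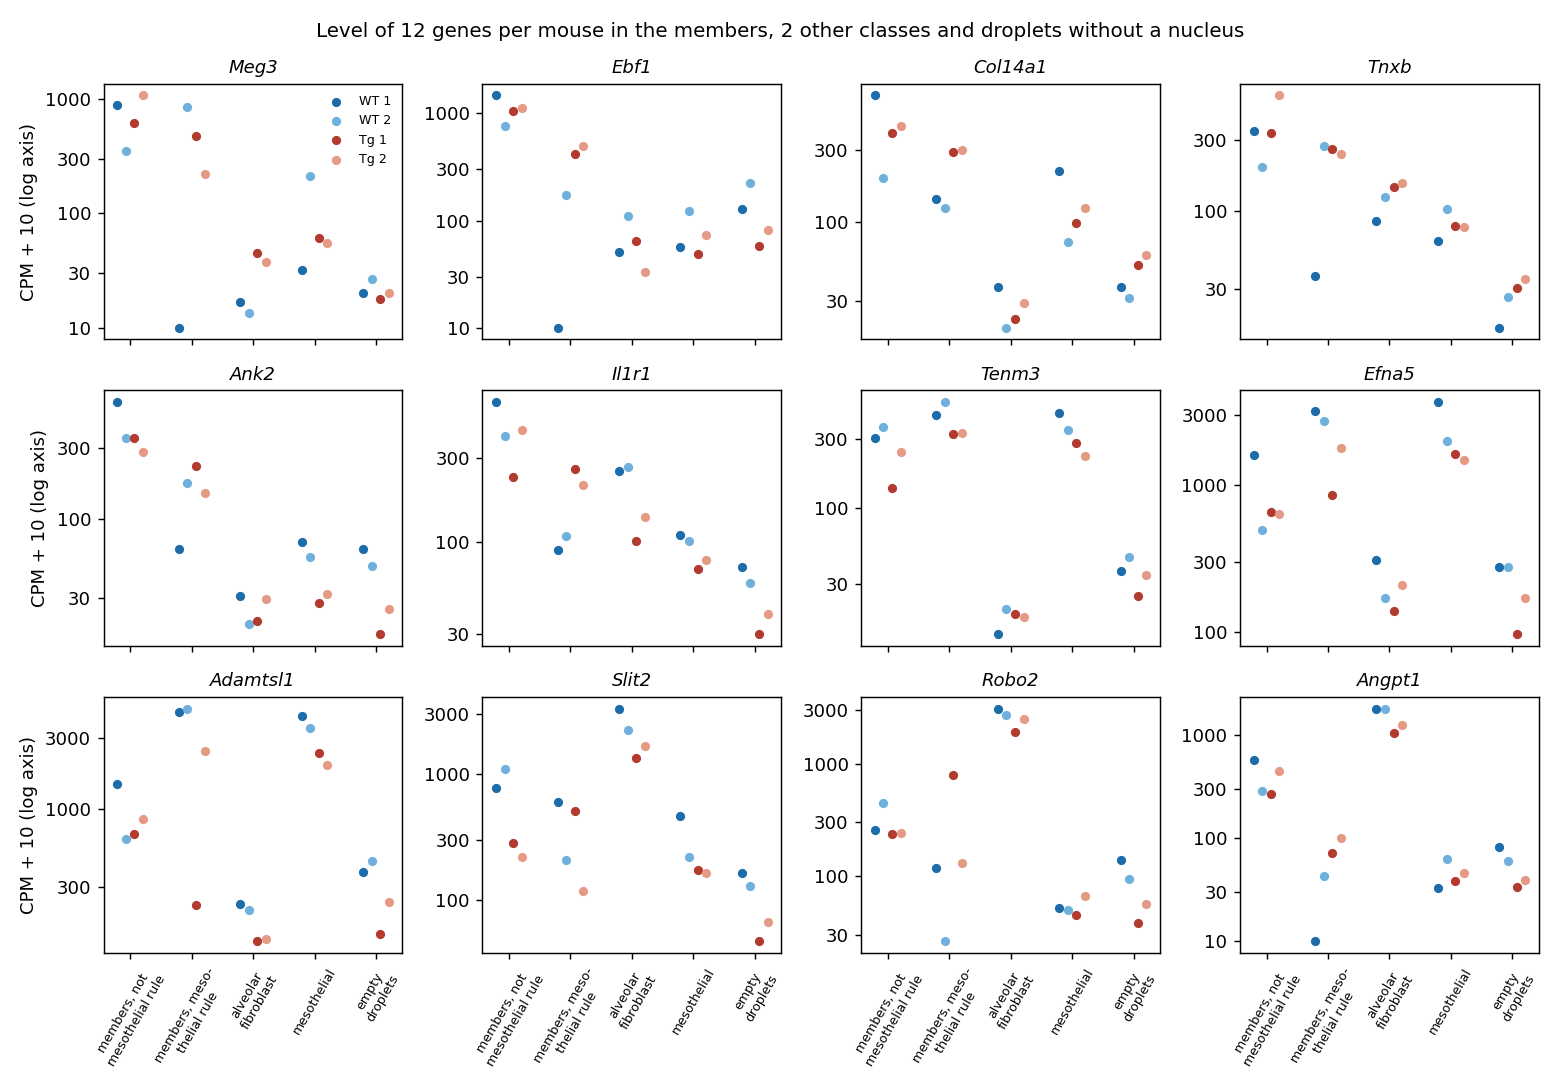
CPM + 10 on a logarithmic axis for 12 genes in the 148 members that did not meet the mesothelial rule, the 31 that did, alveolar fibroblast nuclei, mesothelial nuclei and droplets without a nucleus, with 1 point per mouse. Meg3, Ebf1, Col14a1 and Ank2 sit above alveolar fibroblast nuclei in every mouse in the 148 nuclei, Slit2, Robo2 and Angpt1 sit below them, and Tenm3, Efna5 and Adamtsl1 are also high in mesothelial nuclei.

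The share of adventitial fibroblast nuclei among barcodes with 1500 or more UMIs was 0.115% in WT 1 (95% exact binomial interval 0.0782% to 0.163%), 0.0701% in WT 2, 0.305% in Tg 1 and 0.100% in Tg 2. Tg 1 was the highest mouse, while Tg 2 lay below WT 1, so the genotypes overlapped at the depth as sequenced. The mean was 0.0926% ± 0.0319 (SD, n = 2) in WT mice and 0.202% ± 0.145 (SD, n = 2) in Tg mice, a difference of 0.110 percentage points (two-sided exact permutation test, p = 0.67). With 2 mice against 2 the smallest p that the test can give is 0.33. Among barcodes with 3000 or more UMIs the order of the means turned, with 0.319% in WT mice and 0.286% in Tg mice (exact permutation p = 1). As a share of adventitial, alveolar fibroblast, pericyte and mesothelial nuclei together, the members made 6.42% in WT mice and 2.23% in Tg mice (exact permutation p = 0.33, the smallest possible). By that share both WT mice lay above both Tg mice, at 9.06% and 3.78% against 3.34% and 1.12%. Mesothelial nuclei, the largest class of that sum, numbered 238, 621, 2032 and 3774, so the share moves with their number. With every barcode thinned to 1500 UMIs and the rule applied again, 18, 7, 52 and 34 members were found, or 0.0668%, 0.0182%, 0.206% and 0.0773%. At this even depth both Tg mice lay above both WT mice, with a difference of 0.0990 percentage points (exact permutation p = 0.33, the smallest possible). The intervals cover counting error only.

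**Figure D3:**
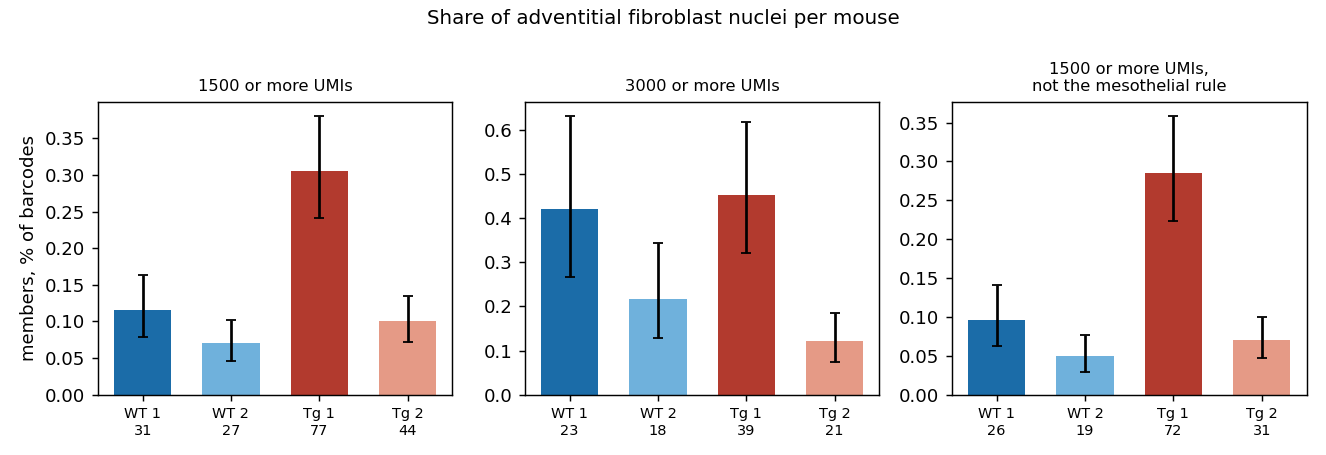
Members as a percentage of barcodes in each mouse (bars from 0, with 95% exact binomial intervals that cover counting error only, and the number of members under each bar) for barcodes with 1500 or more UMIs, those with 3000 or more UMIs, and members without the mesothelial rule. Tg 1 is the highest bar in each panel, and Tg 2 lies below WT 1 in each.

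Between genotypes, genes of ribosomal proteins and hemoglobin made most of those that rose in Tg members. UMIs of the members were summed per mouse, and 4207 genes outside the rule were tested with edgeR. Of these, 47 (1.12%) passed an adjusted p of 0.05, 46 higher in Tg (1.09%) and 1 lower (0.0238%). The 47 comprised 26 genes of ribosomal proteins, 4 of hemoglobin, 1 of the mitochondrial genome and 16 others. All 46 that rose were higher in Tg than WT mice in droplets too, 44 of them by more than 1 log2 unit, and all 46 were higher in alveolar fibroblast nuclei of Tg mice. In members, 43 of the 46 were below droplets in every mouse and 0 were above in every mouse. With the droplets of 10 to 100 UMIs, 46 were again higher in Tg droplets, 44 by more than 1 log2 unit, and 32 were below droplets in every mouse and 0 above. After subtraction of the droplet profile 0 genes passed with edgeR and 282 had an unadjusted p under 0.05. With the second set in its place 0 passed as well, and 179 had an unadjusted p under 0.05. After the first subtraction 15 of the 46 kept enough UMIs to be tested, and all 15 were higher in Tg. Each had 0 to 5 UMIs left per WT mouse, so their fitted folds rest on a group near 0 and are not given. Rpl30, for example, had 0, 0, 26 and 25 UMIs left, and B430010I23Rik 4, 0, 78 and 53. The gene that fell, Camk1d, had 100, 13, 34 and 35 UMIs left, and its log2 fold change moved from -2.16 to -1.33 (adjusted p = 0.67 in edgeR). After the second subtraction Camk1d had 176, 154, 18 and 57 UMIs left and a change of -2.65, and 32 of the 46 were tested, all of them higher in Tg. No gene passed without Tg 1, where 314 had an unadjusted p under 0.05, and the 2 that passed without Tg 2 (Malat1 and Scgb1a1) were not among the 47. Without WT 2, 86 passed.

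The highest fold changes were those of the hemoglobin genes Hbb-bs and Hba-a1. Hba-a1, an alpha globin of red cells, had 1, 1, 96 and 86 UMIs, or 6.79, 6.84, 346 and 440 CPM, and the log2 fold change was 5.85 ± 0.44 (SE, edgeR adjusted p = 0.018). Hbb-bs, a beta globin, had 0, 6, 331 and 201 UMIs (log2 fold change 5.87 ± 0.67, edgeR adjusted p = 0.025). These folds rest on WT mice near 0 UMIs and their size is uncertain. For Hbb-bs the log2 fold change was 4.86 without WT 1 and 10.87 without WT 2. In droplets Hba-a1 stood at 96.4, 95.5, 1308 and 927 CPM, above the members in every mouse. Ftl1, the ferritin light chain, had 4, 8, 145 and 78 UMIs (log2 fold change 3.64 ± 0.41). Hba-a2, Hbb-bt, Rpl30, Rpl15, Rpl6 and Rpl13 were also named, each with a log2 fold change of 4.86 or less, and leaving out 1 WT mouse moved Hba-a2 to 8.90 or 3.85 and Hbb-bt to 3.72 or 8.75. Globins and ribosomal protein genes have near-identical copies, among which their reads could be split, so single values are uncertain. Camk1d, a calcium-dependent kinase, was the gene that fell. It stood at 2527, 1395, 382 and 405 CPM in members and at 5487, 3683, 986 and 726 CPM in droplets, and its log2 fold change in members was -2.16 ± 0.35 (edgeR adjusted p = 0.049). The droplets of 10 to 100 UMIs held Camk1d at 2888, 1175, 985 and 350 CPM, so that members were above them in WT 2 and Tg 2.

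Of the 46, 3 were not below droplets in every mouse, and were picked for that after their values were seen. B430010I23Rik stood at 88.3, 68.4, 339 and 348 CPM in members and at 174, 248, 215 and 252 CPM in droplets, so it was below them in WT mice and above them in Tg mice. Its log2 fold change was 2.27 ± 0.30 (edgeR adjusted p = 0.028), beside a change of 0.15 in droplets and of 1.77 in alveolar fibroblast nuclei. In the droplets of 10 to 100 UMIs B430010I23Rik stood at 275, 441, 481 and 444 CPM, above the members in every mouse. 5330438D12Rik had 2, 1, 33 and 21 UMIs in members and showed the same order, with 3.55 in members, 1.79 in droplets and 1.98 in alveolar fibroblast nuclei. In the droplets of 10 to 100 UMIs the change of 5330438D12Rik was 4.24. The remaining gene was Rpl10, at 6.79, 27.3, 191 and 149 CPM in members and 11, 19.3, 596 and 223 CPM in droplets.

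**Figure D4:**
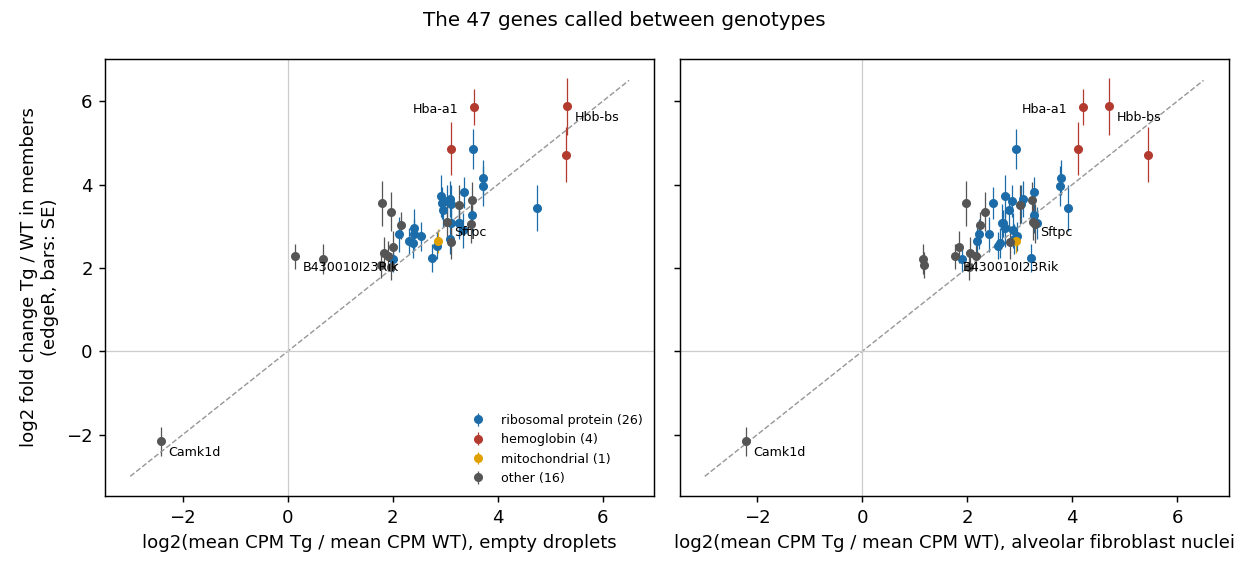
Log2 fold change of Tg over WT in members (edgeR, bars are the SE) for the 47 genes that passed, against the log2 ratio of the mean CPM of Tg over WT mice in droplets without a nucleus (left) and in alveolar fibroblast nuclei (right). The dashed line marks equal change. All 46 genes that rose lie to the right of 0 in both panels, with B430010I23Rik near 0 in droplets.

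Among the other genes that rose, picked here after their values were seen, were some of mesenchymal or secreted proteins. Vim, an intermediate filament of mesenchymal cells, stood at 67.9, 103, 303 and 343 CPM in members and 114, 330, 687 and 837 CPM in droplets (log2 fold change 2.06, edgeR adjusted p = 0.042). The secreted Rarres2 (2.61, adjusted p = 0.042) and the protease inhibitor Cst3 (3.02, adjusted p = 0.022) passed as well, and both were below droplets in every mouse. In the lists of fibroblast functions no gene passed the test in members as a whole, and with 2 mice per genotype a gene that did not pass may still have differed. None of the 7 rule markers was tested, as the rule used them. In the lists of collagens (14 tested), matrix proteases and inhibitors (12), adhesion genes (9), guidance genes (21), secreted ligands (18), receptors (32), transcription factors (27), complement (10), Notch pathway (6), hypoxia response (10), stress genes (6), clock genes (8) and adventitial markers outside the rule (15), 0 passed in either direction. The same held for 18 genes of elastic fibres and other matrix, whose median log2 fold change was 0.64, with 14 above 0, against a median of -0.01 over all genes tested. The adhesion list had a median of -0.71, with 7 of 9 below 0. In droplets both medians lay in the same direction, at 0.96 and -1.22 in the first set and 1.00 and -0.75 in the second. Over these lists and the senescence secretory genes together, 198 genes had 1 identifier in the matrices and were tested, 32 of them had an unadjusted p under 0.05 in edgeR (16.2%, with 20 higher and 12 lower in Tg) beside 585 of the 4207 genes (13.9%), a share near that background, and DESeq2 passed 1, Il1rapl1. Il1rapl1, a synaptic relative of the interleukin 1 receptors, stood at 258, 663, 25.2 and 76.8 CPM (log2 fold change -3.10 ± 0.61, edgeR adjusted p = 0.073, DESeq2 adjusted p = 0.00084). Without the 31 nuclei of the mesothelial rule it stood at 91.0, 152, 28.5 and 0 CPM, so that most of its UMIs in WT mice came from those nuclei. CDK inhibitors had too few UMIs to test, with Cdkn1a at 3, 7, 13 and 21 UMIs and Cdkn2a at 0, 0, 1 and 0. Of the senescence secretory genes 7 of 30 were tested and 0 passed, and Il6 had 0 UMIs in members of every mouse.

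Groups that did not overlap between genotypes were common. CPM of the mice did not overlap for 1996 of the 4207 genes (47.4%), higher in Tg for 762 (18.1%) and lower for 1234 (29.3%). The proteoglycan Bgn (1.94, adjusted p = 0.057), the complement component C3 (1.24, adjusted p = 0.073) and the latent TGF-beta binding protein Ltbp4 (1.69, adjusted p = 0.096) were among them without passing the test in edgeR. C3 stood at 251, 260, 497 and 599 CPM in members and 397, 534, 1222 and 1022 CPM in droplets. The hedgehog receptor Ptch1 stood at 272, 328, 122 and 143 CPM and the hedgehog effector Gli2 at 231, 342, 108 and 143 CPM, with log2 fold changes of -1.03 and -1.05 and edgeR adjusted p of 0.16 and 0.20. Notch2 (0.14) and Jag1 (-1.11, adjusted p = 0.43), a receptor and a ligand of the Notch pathway, did not pass.

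The ribosomal list was higher in Tg mice in members and in droplets alike. All 42 listed genes were above 0 in members, 15 passed, and the median log2 fold change was 2.59, beside 2.43 in droplets and 2.43 in alveolar fibroblast nuclei. Of the markers of other cells, Sftpc, the surfactant protein of alveolar type 2 cells, rose (312, 725, 4280 and 3780 CPM in members, and 1027, 2156, 14966 and 11175 CPM in droplets). The part of free RNA in these changes was not tested beyond the subtractions above.

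Without the 31 nuclei that met the mesothelial rule, more genes passed. Of 2696 genes tested, 130 (4.82%) passed in edgeR, 119 higher (4.41%) and 11 lower (0.408%), and 45 of the 47 genes were again among them. Ribosomal proteins made 55 of the 119. The adventitial marker Igfbp6 (2.01, adjusted p = 0.028), a binding protein of insulin-like growth factors, rose in this setting, as did Bgn (1.80, adjusted p = 0.037). Markers of other cells rose as well, namely 4 of 7 airway and 2 of 9 alveolar epithelial genes tested. This setting was chosen after seeing the data, and the number of members left in it was 26, 19, 72 and 31. The genotype test in it was run only with edgeR on all 4 mice, so its dependence on single mice was not tested.

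The 11 genes that fell in the 148 nuclei included secreted and matrix proteins. Slit2 stood at 765, 1100, 277 and 210 CPM, and its log2 fold change was -1.69 ± 0.34 (edgeR adjusted p = 0.014), against -1.45 (adjusted p = 0.13) in all members. Its ratio was -1.52 in droplets and -0.89 in alveolar fibroblast nuclei on the log2 scale. Its level was 37.5 to 154 CPM in droplets, below the members in every mouse, and 1333 to 3309 CPM in alveolar fibroblast nuclei. The part of free RNA in the fall was not tested. Spon1 stood at 218, 491, 73.3 and 63.1 CPM (-2.10 ± 0.47, adjusted p = 0.025), with 6 UMIs in Tg 2. Ltbp1, which holds latent TGF-beta in the matrix, stood at 501, 585, 216 and 168 CPM (-1.25 ± 0.32, adjusted p = 0.044). The genotypes did not overlap for these 3 genes, but they were picked from those that passed, so this is no further support. In all members 47.4% of the genes tested did not overlap.

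Iigp1, a GTPase induced by interferon, showed the largest fall of the 11, at 391, 246, 12.2 and 10.5 CPM (-4.46 ± 0.53, adjusted p = 0.0011). It had 43, 21, 3 and 1 UMIs, so the size of its fall is uncertain. It was lower in alveolar fibroblast nuclei and droplets of Tg mice as well. Cyp7b1, which hydroxylates oxysterols, stood at 328, 468, 89.6 and 94.7 CPM (-1.90 ± 0.37, adjusted p = 0.011), with 9 UMIs in Tg 2. Camk1d, Rbfox1, Prr16, Aff3, Cpeb1 and Gm26917 completed the 11, at -2.19 to -1.20. In the 148 nuclei Rbfox1, a splicing regulator, was at 200 and 175 CPM in WT mice and 36.7 and 31.6 CPM (9 and 3 UMIs) in Tg mice. In all members, the 31 nuclei included, Rbfox1 stood at 238, 328, 144 and 184 CPM. Of the 11, Camk1d alone passed in all members, where the other 10 had log2 fold changes of -2.95 to -0.65 and edgeR adjusted p of 0.071 to 0.40. Iigp1 had -2.95 there (adjusted p = 0.082), with 66.6 CPM in Tg 2. By their mean, all 11 were also lower in Tg mice in droplets and in alveolar fibroblast nuclei, and 9 of the 11 in the droplets of 10 to 100 UMIs. The share of all genes lower there was not counted, so these counts do not set the 11 apart from other genes.

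**Figure D5:**
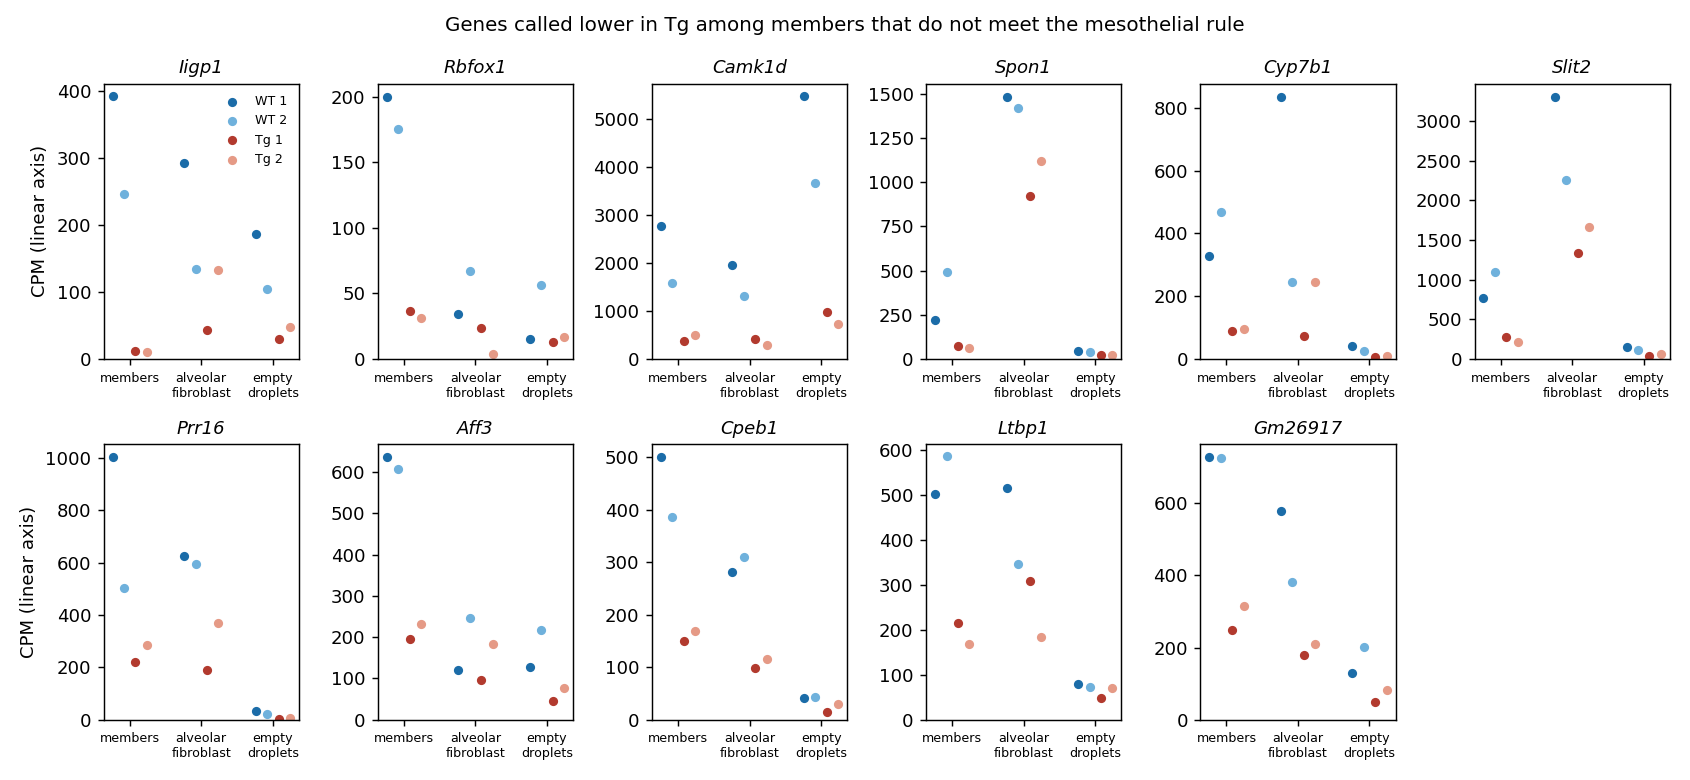
CPM on linear axes from 0 for the 11 genes lower in Tg mice among the 148 members that did not meet the mesothelial rule, with 1 point per mouse in those members, in alveolar fibroblast nuclei and in droplets without a nucleus. The genes were picked for passing the test in members, where both Tg points lie below both WT points for each. Slit2, for example, stood at 765 and 1100 CPM in WT mice against 277 and 210 CPM in Tg mice.

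The change between genotypes was compared between members and alveolar fibroblast nuclei of the same mice, which asks whether the genotypes differed more in either kind of fibroblast. In the interaction of class and genotype, 3 of 6623 genes (0.0453%) passed in edgeR, and they were Kcnb2, Csmd1 and Pcdh9. For Slit2 in all members and for the other fibroblast genes named above, no difference between the classes in the genotype change passed the test. A p that misses the threshold does not show that the classes changed alike. Leaving out WT 1, WT 2, Tg 1 or Tg 2 gave 19, 5, 1 and 18 genes, and the gene left without Tg 1 was Spef2, not one of the 3.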

How the data were processed

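The authors deposited unfiltered matrices of UMI counts per gene and barcode for each mouse, made per the labels with Cell Ranger 6.1.1 and build mm10, with reads on introns counted according to the paper. Counts were used as deposited. No removal of free RNA or batch correction is part of them. Barcodes were assigned by the rules in the text, counts of each class were summed per mouse, and genes passing edgeR's filter (minimum count 10) were tested with TMM scaling, the quasi-likelihood test and Benjamini-Hochberg adjustment at 0.05. The interaction fit had a term for each mouse. Shares were compared with exact permutation tests.

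Alternatives were DESeq2, upper quartile scaling, no filter, a replicate block, each mouse left out, doublets by cxds score (0.8% per 1000 barcodes), stricter and deeper members, thinning to 1500 UMIs, and subtraction of the droplet profile, from barcodes ranked 45000 to 90000 or, added later, from those with 10 to 100 UMIs. Doublets were otherwise limited by the rule alone. The mice were not paired by replicate number in the main test. Over 4207 genes the difference of replicate 1 from replicate 2 correlated weakly between genotypes (r = 0.117). The labels give no shared litter or day. Barcodes with 10 to 100 UMIs numbered 2375 and 3198 in WT 1 and Tg 1, and 26482 and 29474 in WT 2 and Tg 2. Whether mice with the same replicate number shared a batch was not tested.

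Up to 12 genes each were named by largest rise and fall among those passing without overlap, leaving out markers of other cells, and 20 by the lowest ratio over alveolar fibroblast nuclei (whose level was taken as no less than 3 UMIs per mouse), beside the lists. Some genes that this rule named are not reported here. The members and lists were chosen with earlier results of these data known. Ccl19, Aldoa, Ero1a and Bmal1 did not match exactly 1 gene of the matrices. The edgeR fits were tested on simulated data. R 4.3.3, edgeR 4.0.16, DESeq2 1.42.0, Python 3.11.15, NumPy 2.4.6, pandas 2.3.3, SciPy 1.17.1 and Matplotlib 3.10.9 were used.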

Additional observations from a re-analysis of the deposited data

Results flagged for a closer look

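In 3 genes the change between genotypes differed between members and alveolar fibroblast nuclei by the interaction test (edgeR). Kcnb2, a potassium channel subunit, had a difference of 4.65 ± 0.91 on the log2 scale (adjusted p = 0.014), from 0, 6.84, 61.2 and 41.0 CPM in members (0, 1, 17 and 8 UMIs) and 708, 546, 298 and 366 CPM in alveolar fibroblast nuclei. In the 148 members without the mesothelial rule it stood at 0, 0, 40.7 and 0 CPM, and the adjusted p was 0.41. Csmd1, a membrane protein with complement control domains, had a difference of 3.16 ± 0.60 (adjusted p = 0.014), from 659, 150, 119 and 128 CPM in members and 540, 50.5, 10.9 and 3.89 CPM in alveolar fibroblast nuclei, and without those nuclei the adjusted p was 0.15. Both WT mice differed from each other for Csmd1 in both classes. Pcdh9, a protocadherin, had a difference of -3.96 ± 0.83 (adjusted p = 0.035), and rested on WT 2, with 6.79, 335, 54.0 and 46.1 CPM in members and 13.7, 3.37, 43.6 and 46.7 CPM in alveolar fibroblast nuclei, where both Tg mice were the higher. Without WT 2 its adjusted p was 0.95, without Tg 1 it was 0.058, and without the nuclei of the mesothelial rule it was 0.015. Kcnb2 had an adjusted p of 0.10 without WT 1 and 0.26 without Tg 1, and Csmd1 of 0.30 without WT 1, 0.069 without Tg 1 and 0.097 without Tg 2. With DESeq2 the adjusted p was 1.00 for each of the 3 genes.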

How the results depend on the processing

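The number of genes tested differed between settings, so the counts passing are not directly comparable. Between genotypes 47 of 4207 genes passed. The count was 79 of 4207 with DESeq2 (75 higher, 4 lower) and 318 of 16955 with no filter on low counts (260, 58). With the replicate block it was 89 of 4207 (83, 6). Without doublets by cxds it was 177 of 1736 (162, 15), and this left out 35.5%, 63.0%, 37.7% and 40.9% of the members. After thinning to 1500 UMIs it was 113 of 1375 (103, 10), and after subtraction of free RNA 0 of 2926. After that subtraction Camk1d had -1.33 against -2.16, and 15 of the 46 risen genes were still tested, on 0 to 5 UMIs left per WT mouse; with the profile of droplets with 10 to 100 UMIs Camk1d had -2.65 and 32 were tested. Other settings were added after seeing the data. The genes passing were 130 of 2696 without the members of the mesothelial rule and 195 of 2097 without members that met any other rule. They were 0 of 3090 after subtraction of the profile of droplets with 10 to 100 UMIs. They numbered 51 without WT 1, 86 without WT 2, 0 without Tg 1 and 2 without Tg 2, a range of 0 to 86. In the interaction the count of 3 became 0 with DESeq2, where 43 had an unadjusted p under 0.05, 0 without doublets by cxds, where 116 did, and 0 after subtraction of the droplets with 10 to 100 UMIs, where 159 did. It was 7 with no filter, the 3 among them, and 1 without the mesothelial rule, which was Pcdh9. It was also 1 with 6 or more marker UMIs (Kcnd2) and 1 after subtraction of free RNA (Thsd4), and none of the 3 passed in either. With each mouse left out it was 1 to 19. The cause was not tested. The difference in share, 0.110 percentage points, was -0.0328 with 3000 or more UMIs. It was -4.19 as a share of mesenchymal and mesothelial nuclei, where the genotypes did not overlap. It kept its direction in 4 settings, at 0.0990 after thinning, where the genotypes did not overlap, 0.0948 with 6 or more marker UMIs, 0.0986 without doublets and 0.105 without the mesothelial rule. Of the 13 genes that the naming rule picked between genotypes, all 13 kept direction and call with upper quartile scaling, DESeq2, no filter, the replicate block, 3000 or more UMIs and without either WT mouse, and none passed without Tg 1 or without Tg 2. Classes of 27 to 77 nuclei per mouse limited the test to 4207 genes with enough UMIs.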
